A study of Mus musculus with 15 samples.

Results

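Mybpc1, Cryba2, Adam18, Esyt3, Ascl4 and Onecut1 are 6 genes, of 22180 measured, whose level was higher in 5 newborn mouse cerebella than in the other 10. They were chosen by their measured levels: the 5 libraries are those in which the array row annotated to Gsk3a lay below 9.0 log2, and the 6 genes were named with their higher levels there known. The Gsk3a row and the 15 levels of each gene are therefore given as a description, with no test of the split. Each gene had 1 array row with no other gene symbol, and that row was used.

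RNA from 15 cerebella of C57BL/6 pups was measured on whole-transcript arrays, in 3 labelled groups of 5 libraries, 1 array a library. The double knockout (DKO) lacks Gsk3a and Gsk3b, the genes of the Gsk-3 isoforms, in cerebellar granule neuron progenitors. The Math1-Cre control carries Math1-Cre (written M1Cre), Gsk3a +/- and Gsk3b f/f, so that only Gsk3b is deleted, and the no-Cre control has the same Gsk3a +/- and Gsk3b f/f genotype without Cre and is described as intact. The entry for no-Cre 5 does not state Gsk3b. The Gsk3a allele is thus altered in every group, and the labels do not say whether it is a germline null. The labels give the age as P1 in one field and as P2 in another. Math1 (Atoh1) drives Cre in the granule lineage, so other cells of the cerebellum keep Gsk3b, and the progenitors were enriched on a density gradient before RNA was isolated. In such bulk samples fewer cells of a type and less RNA per cell cannot be told apart. Nothing in the labels says which libraries share a litter, so the spread between libraries may hold technical parts.

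Gsk-3 alpha and beta are kinases of the beta-catenin destruction complex: they phosphorylate beta-catenin and so mark it for degradation, and when both are lost beta-catenin accumulates and acts with LEF/TCF factors on target genes. Axin2, a scaffold of that complex, is itself a target and is widely read as a gauge of WNT/beta-catenin activity. None of the 6 genes is a textbook gene of granule neuron progenitors. Onecut1 and Ascl4 encode transcription factors, Mybpc1 a thick filament protein of slow skeletal muscle, Cryba2 a crystallin of the lens, Adam18 a membrane protein of sperm and Esyt3 a lipid transfer protein at contacts of the endoplasmic reticulum with the plasma membrane.

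The Gsk3a row, which the array shares with the transcript 9130221H12Rik, went against the label in 4 libraries, DKO 1, DKO 3, Math1-Cre 1 and Math1-Cre 2. Whether these labels were exchanged was not tested; libraries are called by their labels throughout, and each labelled mean or difference rests on them. It was 8.22, 7.89 and 8.27 for the libraries labelled DKO 2, 4 and 5, and the pair labelled Math1-Cre 1 and 2 had 8.25 and 8.03. It was 9.37 to 9.59 in the other 10 libraries, which are DKO 1 and 3, Math1-Cre 3, 4 and 5 and all 5 no-Cre libraries. The values nearest the threshold of 9.0 were 8.27 in DKO 5 below it and 9.37 in DKO 3 above it. Axin2 was 8.14 to 8.52 in the 5 Gsk3a-low libraries and 6.86 to 7.14 in the 10 Gsk3a-high libraries. All values are log2 expression.

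Background was read from 1394 olfactory and vomeronasal receptor genes. Their median was 3.55 to 4.01 in the Gsk3a-low libraries and 3.50 to 4.11 in the Gsk3a-high libraries, and their 95th percentile was 4.79 to 5.52 in the Gsk3a-low and 4.65 to 5.58 in the Gsk3a-high libraries. DKO 3, 4 and 5 and no-Cre 4 had the highest background, with receptor medians of 4.11, 3.97, 4.01 and 4.05. Of the granule neuron progenitor markers, 8 of 9 lay above the 95th percentile in all 15 libraries, as did 10438 of all 22180 genes. Purkinje cell markers did so in 5 of 5 cases, so the count does not show enrichment of progenitors.

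Because TCF/LEF factors act on WNT targets, the 250 bases upstream of the RefSeq start (build GRCm38.p6), available for 5 of the 6 genes, were searched for the TCF/LEF core, written CTTTGAA or else CTTTGAT, with CTTTGTA and also CTTTGTT, on both strands. Ascl4 was the one gene of the 5 that held it, as TTCAAAG on the gene's strand (the reverse complement of CTTTGAA), at bases 130 to 124 and 14 to 8 before the start. The motif stood in 14.8% of 32851 such windows, and 1.43% held 2 or more. The windows of Cryba2, Esyt3, Mybpc1, Onecut1 and Axin2 held none, which says only that these letters are not in them. The windows of Ascl4 (chr10:85927152-85927401, plus strand), which holds the matches (in capitals), of Mybpc1 (chr10:88605153-88605402, minus strand), with the widest distance between nearest libraries of the 2 classes as deposited, and of Onecut1 (chr9:74861671-74861920, plus strand), the most GC-rich, are shown 5′ to 3′ on the gene's strand.
Ascl4: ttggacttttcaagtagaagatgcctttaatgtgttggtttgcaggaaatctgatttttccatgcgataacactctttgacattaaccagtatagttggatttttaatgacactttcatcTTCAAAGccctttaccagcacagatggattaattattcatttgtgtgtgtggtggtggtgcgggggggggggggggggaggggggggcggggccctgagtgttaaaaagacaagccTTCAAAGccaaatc
Mybpc1: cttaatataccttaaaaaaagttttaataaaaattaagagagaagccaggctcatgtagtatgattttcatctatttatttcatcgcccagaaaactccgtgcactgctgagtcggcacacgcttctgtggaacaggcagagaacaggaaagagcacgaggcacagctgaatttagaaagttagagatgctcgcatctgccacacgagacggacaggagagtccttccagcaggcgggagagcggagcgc
Onecut1: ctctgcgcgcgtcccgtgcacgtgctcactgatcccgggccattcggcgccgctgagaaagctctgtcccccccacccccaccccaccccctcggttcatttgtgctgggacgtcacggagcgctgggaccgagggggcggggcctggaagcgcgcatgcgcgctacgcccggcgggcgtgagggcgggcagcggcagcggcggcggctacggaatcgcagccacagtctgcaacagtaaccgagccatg
Their composition differed, with a GC share of 45.2% for Ascl4, 46.4% for Mybpc1 and 71.6% for Onecut1, and of 58.8% for Cryba2.

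Mybpc1, the slow type of myosin binding protein C, had the widest distance between nearest libraries of the 6 genes as deposited, though Cryba2 differed more between medians. It was 9.61, 9.64 and 9.04 in libraries DKO 2, 4 and 5, with 9.41 and 9.34 for Math1-Cre 1 and 2. It was 6.13 and 6.03 in DKO 1 and 3, 6.45, 6.10 and 6.87 in Math1-Cre 3, 4 and 5 and 6.34, 6.83, 6.50, 6.68 and 6.59 in the no-Cre libraries. No Gsk3a-low library came within 2.16 log2 of a Gsk3a-high one, and the medians, 9.41 in the Gsk3a-low and 6.48 in the Gsk3a-high libraries, differed by 2.93 log2 or 7.62-fold. Its Gsk3a-high levels lay 1.92 to 3.30 log2 over the receptor median and above the receptor 95th percentile in 10 of 10 libraries, so Mybpc1 was not at background there. Calling it switched on would go against these values: its transcript was measured in every library and was higher in 5.

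Onecut1, a CUT-homeodomain factor also called HNF6 that acts in liver, pancreas and parts of the nervous system, was 7.25, 7.43 and 7.21 in libraries DKO 2, 4 and 5, with 7.33 and 7.31 for Math1-Cre 1 and 2. It was 5.28 and 4.83 in DKO 1 and 3, 5.20, 5.61 and 5.96 in Math1-Cre 3, 4 and 5 and 5.27, 4.55, 5.92, 4.41 and 5.13 in the no-Cre libraries. As deposited, the Gsk3a-low libraries lay within 0.22 log2 of each other, the narrowest spread of the 6 genes there, but over the receptor median they spanned 0.55 log2 and Ascl4 was narrower, at 0.27 log2. The Gsk3a-high libraries spread over 1.54 log2 as deposited, the widest of the 6. The medians were 7.31 in the Gsk3a-low and 5.23 in the Gsk3a-high libraries, a difference of 2.07 log2. Onecut1 exceeded the receptor 95th percentile in 7 of 10 Gsk3a-high libraries, so it too was above background in most of them.

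Ascl4, a bHLH factor of the achaete-scute family, was 6.00, 5.99 and 6.16 in libraries DKO 2, 4 and 5, with 5.64 and 5.68 for Math1-Cre 1 and 2. It was 4.38 in both DKO 1 and DKO 3, 3.97, 3.86 and 3.91 in Math1-Cre 3, 4 and 5 and 4.32, 4.10, 4.23, 4.70 and 4.18 in the no-Cre libraries. The nearest libraries, Math1-Cre 1 and no-Cre 4, were 0.94 log2 apart, and the medians of 5.99 in the Gsk3a-low and 4.20 in the Gsk3a-high libraries differed by 1.79 log2. It passed the receptor 95th percentile in 5 of 5 Gsk3a-low and 0 of 10 Gsk3a-high libraries. Among the 6 it was the one gene to meet this cut in full, which 4 of 22180 genes (0.018%) did, and nothing is read from the count. Cryba2, Adam18 and Esyt3 missed it only in DKO 5. In the Gsk3a-high libraries their medians lay nearer background, at -0.29, -0.10 and 0.01 log2 from the receptor median, against 0.58 log2 for Ascl4.

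Cryba2, a beta-crystallin, was 6.91, 6.25 and 4.98 in libraries DKO 2, 4 and 5, with 6.48 and 6.88 for Math1-Cre 1 and 2. It was 3.35 and 3.43 in DKO 1 and 3, 3.14, 3.46 and 3.21 in Math1-Cre 3, 4 and 5 and 3.38, 3.42, 3.77, 3.41 and 3.56 in the no-Cre libraries. The classes did not overlap, and DKO 5 stood 1.28 log2 below the next Gsk3a-low library. The Gsk3a-high levels lay -0.69 to 0.28 log2 from the receptor median, at background, so the difference of medians of 3.06 log2, with 6.48 in the Gsk3a-low and 3.41 in the Gsk3a-high libraries, can understate the change. Cryba2 was above the receptor 95th percentile in 4 of 5 Gsk3a-low libraries, DKO 5 being the exception, and in 0 of 10 Gsk3a-high libraries.

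Adam18, of the sperm-surface ADAM proteins, was 7.12, 5.57 and 5.02 in libraries DKO 2, 4 and 5, with 6.01 and 6.63 for Math1-Cre 1 and 2. It was 3.47 and 3.67 in DKO 1 and 3, 3.38, 3.45 and 3.74 in Math1-Cre 3, 4 and 5 and 3.70, 3.50, 3.54, 3.68 and 3.56 in the no-Cre libraries. Its spread of 2.1 log2 over the Gsk3a-low libraries was the widest of the 6, and its spread of 0.35 log2 over the Gsk3a-high libraries, at background, the narrowest. The medians, 6.01 in the Gsk3a-low and 3.55 in the Gsk3a-high libraries, differed by 2.46 log2.

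Esyt3, the third extended synaptotagmin, was 6.26, 6.52 and 5.18 in libraries DKO 2, 4 and 5, with 6.29 and 6.28 for Math1-Cre 1 and 2. It was 3.38 and 3.71 in DKO 1 and 3, 3.44, 3.75 and 3.81 in Math1-Cre 3, 4 and 5 and 3.70, 3.56, 3.87, 3.77 and 3.55 in the no-Cre libraries. The classes did not overlap, and the medians of 6.28 in the Gsk3a-low and 3.71 in the Gsk3a-high libraries differed by 2.57 log2. As with Cryba2 and Adam18, 4 of 5 Gsk3a-low and 0 of 10 Gsk3a-high libraries lay above the receptor 95th percentile, with DKO 5 below it.

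**Figure D1:**
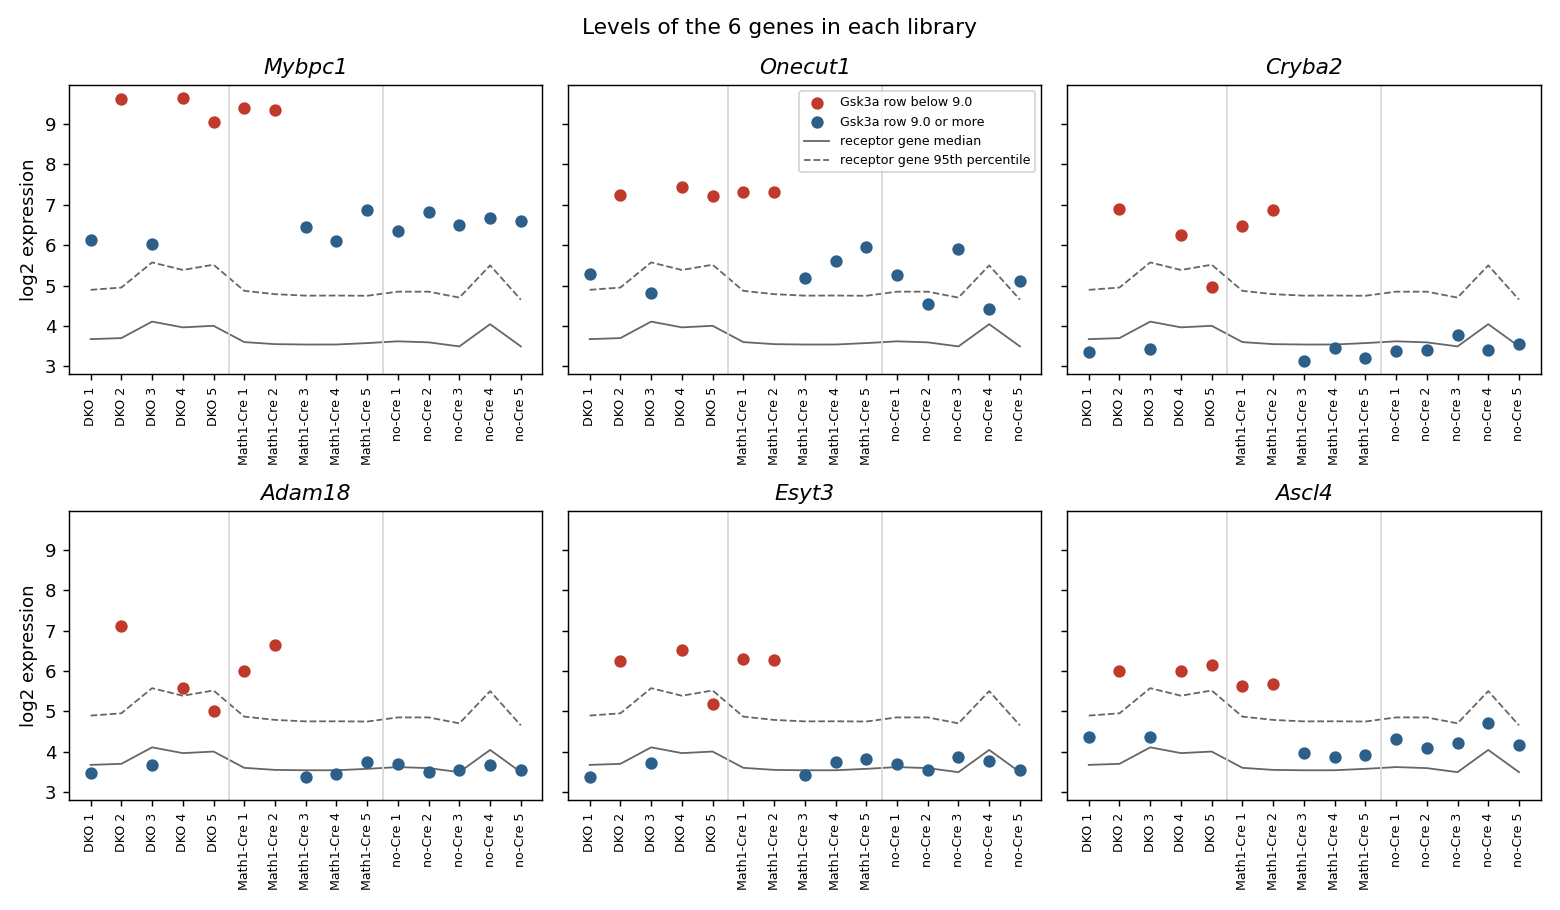
Level of each of the 6 genes (log2 expression, 1 panel a gene) in the 15 libraries, with the median (solid line) and 95th percentile (dashed line) of the receptor genes of the same library. Red points, the 5 libraries with a Gsk3a row below 9.0, lie above every blue point in each panel; the blue points of Mybpc1 lie above the dashed line and those of Cryba2, Adam18 and Esyt3 along the solid one.

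All 6 genes thus placed the 5 Gsk3a-low libraries above the 10 Gsk3a-high ones, a pattern shown by 147 of 22180 genes (0.663%). The rule used this split, and nothing is read from the count. With at least 1 log2 between the nearest libraries it was shown by 16 genes (0.0721%), which included Mybpc1, Esyt3, Adam18, Onecut1 and Cryba2 and not Ascl4. Which of the 6 genes reached 1 log2 depended on the scaling. With centring on the receptor median only Mybpc1 (1.74 log2) and Ascl4 (1.29) did, against 0.86 for Adam18, 0.80 for Esyt3, 0.79 for Onecut1 and 0.70 for Cryba2, and with quantile normalization all 6 did, Ascl4 at 1.01. The others among the 16 were Wif1, Notum, Pmaip1, Fst, Lgr6, Myo1e, Lef1, Ism1, D630039A03Rik, Sp5 and Dlx3. In the opposite direction 187 genes (0.843%) had every Gsk3a-low library below every Gsk3a-high one, but 0 did so by 1 log2. The Gsk3a row, shared with another transcript, is not in this count.

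Among the 5 Gsk3a-low libraries the 6 genes, as deposited, did not move as 1 block. Cryba2 and Adam18 ordered the libraries identically, with DKO 2 highest, then Math1-Cre 2, Math1-Cre 1, DKO 4 and DKO 5, although DKO 2 and Math1-Cre 2 were 0.03 log2 apart for Cryba2. Esyt3 and Onecut1 shared another order, with DKO 4 highest, then Math1-Cre 1, Math1-Cre 2, DKO 2 and DKO 5; several of these steps were under 0.05 log2. Ascl4 ran nearly the other way, with DKO 5 highest and Math1-Cre 1 lowest, and put 2 of the 10 pairs of libraries in the same order as Esyt3. DKO 5 was the lowest library for 5 of the 6 genes, all but Ascl4. Without DKO 5 the distance between the nearest libraries of the 2 classes was 2.48 log2 for Cryba2, against 1.21 with it, and 2.39 log2 for Esyt3, against 1.31 with it.

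DKO 5 had one of the highest backgrounds. Measured as distance over each library's receptor median, DKO 5 was still the lowest library for 5 of the 6 genes, again all but Ascl4, for which DKO 4 was lowest. On that scale Cryba2 was highest in Math1-Cre 2 and Adam18 in DKO 2, so their orders differed, while Esyt3 and Onecut1 still shared 1 order. For the 11 other genes with a separation of 1 log2, DKO 5 was the lowest in 3 as deposited and in 9 over the receptor median. Its part in the order was not tested.

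How far the order followed Axin2 depended on the scale. As deposited, Axin2 was 8.52 in DKO 4, 8.28 in DKO 2, 8.20 in Math1-Cre 1, 8.18 in DKO 5 and 8.14 in Math1-Cre 2, a range of 0.38 log2. The Gsk3a row, over the same range of 0.38 log2, was lowest in DKO 4 (7.89), then Math1-Cre 2 (8.03), DKO 2 (8.22), Math1-Cre 1 (8.25) and DKO 5 (8.27). Mybpc1 came nearest to Axin2, with 9 of the 10 pairs of libraries in the same order, against 7 for Esyt3 and Onecut1 and 5 for Cryba2, Adam18 and Ascl4. Set against a falling Gsk3a row, Mybpc1, Esyt3 and Onecut1 had 8 of 10 pairs in order, Cryba2 and Adam18 had 6 and Ascl4 had 4. DKO 4, which had the highest Axin2 and the lowest Gsk3a row, was the highest library for Mybpc1, Esyt3 and Onecut1 and the fourth of 5 for Cryba2 and Adam18. Over the receptor median DKO 4 was highest for 0 of the 6 genes. Axin2 was then highest in Math1-Cre 1 (4.598) and lowest in DKO 5 (4.175), and Esyt3 and Onecut1 had 9 of 10 pairs in its order, Mybpc1 and Cryba2 had 8, Adam18 had 7 and Ascl4 had 4. That scale subtracts the same number from Axin2 and from the gene, which by construction adds a shared term. With 5 libraries no correlation was computed.

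**Figure D2:**
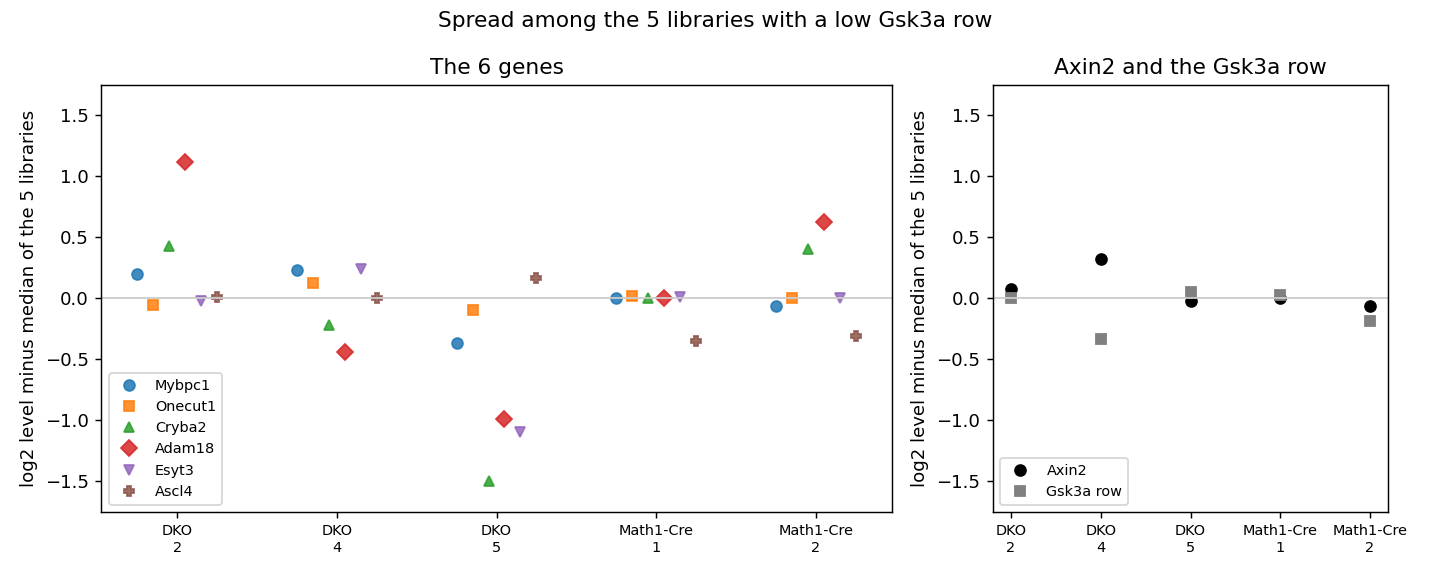
Level in each of the 5 Gsk3a-low libraries minus the median of the 5 (log2), for the 6 genes on the left and for Axin2 and the Gsk3a row on the right, on the same scale. Cryba2, Adam18 and Esyt3 vary over 1.93, 2.1 and 1.34 log2, with DKO 5 lowest, while Onecut1, Axin2 and the Gsk3a row stay within 0.22, 0.38 and 0.38 log2.

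The spread among the 10 Gsk3a-high libraries was not used in choosing the genes, and there each gene was set against Axin2, whose range was 0.28 log2. Of 6 correlations none passed after Benjamini-Hochberg adjustment over the 6 (permutation test, two-sided, 100000 resamples). These libraries come from all 3 labelled groups, which the permutation did not keep apart, so a difference between groups can enter a correlation. Mybpc1 had the largest Pearson's r, 0.68 (n = 10, permutation p = 0.0293, adjusted p = 0.176), with a Spearman's rho of 0.61 (permutation p = 0.0675, adjusted p = 0.405) and an r of 0.84 without the 2 libraries farthest from the median of Axin2. The others had r of -0.19 for Cryba2, 0.41 for Adam18, 0.10 for Esyt3, 0.02 for Ascl4 and 0.14 for Onecut1, with permutation p of 0.242 to 0.949 and adjusted p of 0.727 to 0.949. Their rho was -0.33, 0.49, 0.25, -0.01 and 0.22, with permutation p of 0.154 to 0.993 and adjusted p of 0.461 to 0.993, and their r without the 2 farthest libraries was -0.21, 0.63, 0.16, 0.10 and -0.01. Without no-Cre 1 the r of Mybpc1 was 0.89 (permutation adjusted p = 0.00486), so that call rested on 1 library. Of the 6 genes, Cryba2, Adam18, Esyt3 and Ascl4 had no Gsk3a-high library above the receptor 95th percentile.

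**Figure D3:**
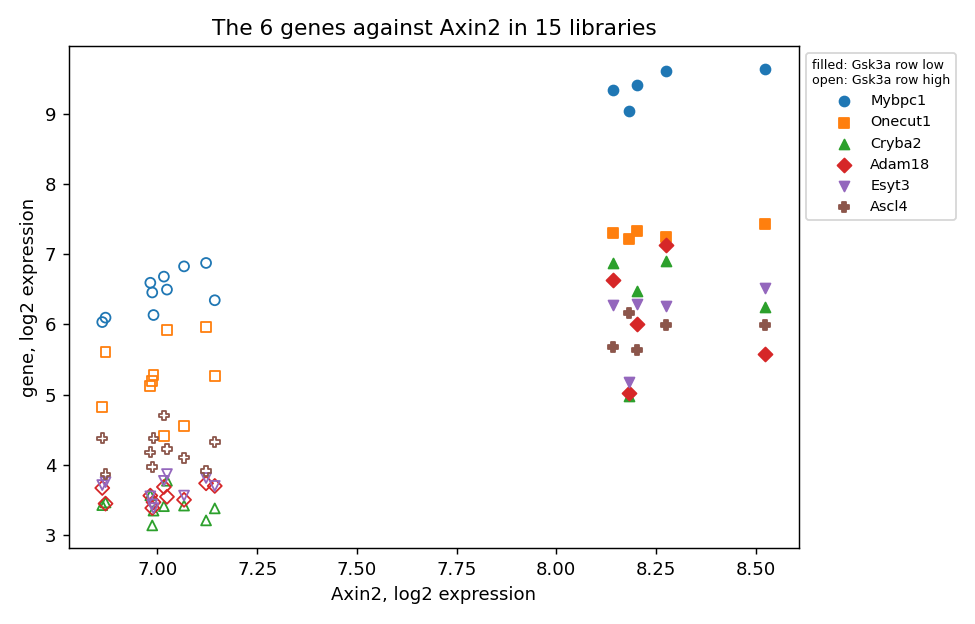
Level of each of the 6 genes against Axin2 in the 15 libraries (both log2 expression), with filled symbols for the 5 Gsk3a-low and open symbols for the 10 Gsk3a-high libraries. The libraries form 2 clusters, at an Axin2 of 8.14 to 8.52 and of 6.86 to 7.14, so no correlation over all 15 is given.

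By label the groups overlapped for the 6 genes, and each Cre-labelled group held both kinds of library. Mybpc1, for example, had a mean of 8.09 ± 1.85 in DKO, 7.63 ± 1.61 in the Math1-Cre control and 6.59 ± 0.18 in the no-Cre control (SD, n = 5 each), and Esyt3 averaged 5.01 ± 1.43, 4.71 ± 1.44 and 3.69 ± 0.14 in the same groups (SD, n = 5 each). The SD was larger in both Cre-labelled groups for all 6 genes, least so for Onecut1, with 1.24 in DKO, 0.99 in the Math1-Cre control and 0.60 in the no-Cre control. In DKO minus no-Cre the differences ran from +1.07 ± 0.43 (SE) for Ascl4 to +1.5 ± 0.79 for Mybpc1, and 0 of 6 passed in limma, with adjusted p of 0.219 to 0.347, against a background of 0.018% of genes called higher. At an unadjusted p under 0.05, Ascl4 and Onecut1 were higher, where 5.54% of all genes were. In DKO minus Math1-Cre, which asks what the loss of Gsk3a adds, they ran from +0.12 ± 0.54 for Onecut1 to +0.77 ± 0.43 for Ascl4, and 0 of 6 passed (limma adjusted p of 0.294 to 0.911; 0.131% of genes called higher; 0 of 6 at an unadjusted p under 0.05, against 7.51%). In Math1-Cre minus no-Cre they ran from +0.31 ± 0.43 for Ascl4 to +1.22 ± 0.54 for Onecut1, and 0 of 6 passed (limma adjusted p of 1.00 for each; 0% of genes called higher), Onecut1 alone having an unadjusted p under 0.05, as 2.2% of genes did. These libraries were known when the genes were chosen, so no direction here is independent support, and the comparisons share their control libraries.

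The same comparisons were made without the 4 libraries whose Gsk3a row went against the label, which left 3 DKO, 3 Math1-Cre and 5 no-Cre libraries. This subset is set by the Gsk3a row, as was the choice of the 6 genes, so the values are a description. DKO minus no-Cre was +2.84 ± 0.18 (SE) for Mybpc1, +2.54 ± 0.31 for Cryba2, +2.31 ± 0.34 for Adam18, +2.29 ± 0.24 for Esyt3, +2.24 ± 0.29 for Onecut1 and +1.74 ± 0.12 for Ascl4. DKO minus Math1-Cre was +2.95 ± 0.21, +2.78 ± 0.35, +2.38 ± 0.38, +2.32 ± 0.27, +1.71 ± 0.32 and +2.13 ± 0.14 for the same genes in that order. All 6 passed in limma in both, where 0.437% and 0.289% of genes were called higher, and nothing is read from that. Math1-Cre minus no-Cre ran from -0.39 ± 0.12 for Ascl4 to +0.53 ± 0.29 for Onecut1, with 0 of 6 past the test, against 0% of genes called higher. Ascl4 in Math1-Cre 3, 4 and 5 (3.97, 3.86 and 3.91) lay below all 5 no-Cre libraries (4.10 to 4.70). Its unadjusted limma p was 0.00795 and its adjusted limma p 0.9999. The share of all genes with so low an unadjusted p was not computed, so nothing is read from it.

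**Figure D4:**
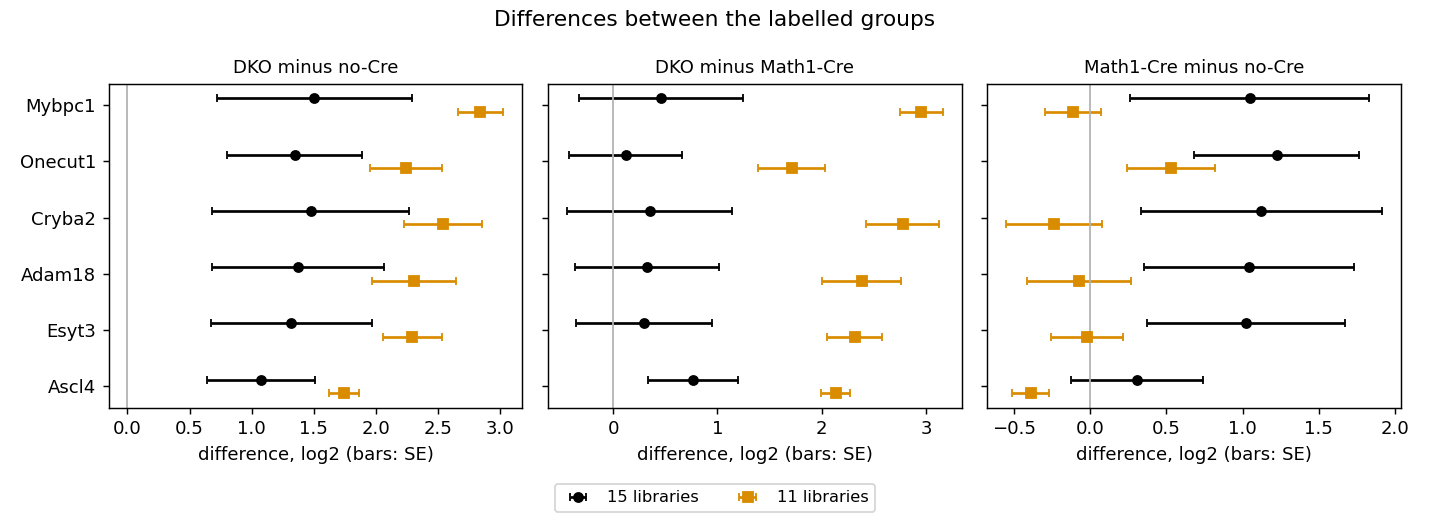
Difference between labelled groups (log2) with its SE from limma for each of the 6 genes, over 15 libraries (black) and over the 11 left without DKO 1, DKO 3, Math1-Cre 1 and Math1-Cre 2 (orange). DKO minus Math1-Cre lies between +0.12 and +0.77 over 15 libraries and between +1.71 and +2.95 over 11, and Math1-Cre minus no-Cre between +0.31 and +1.22 over 15 and between -0.39 and +0.53 over 11.

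The relatives of the 6 genes mostly did not share the pattern. Of 31 measured relatives from 6 families, 2 had every Gsk3a-low library above every Gsk3a-high one and 0 every one below, where 0.663% and 0.843% of all genes did, and the median difference between the medians of the 2 classes was 0.02 log2, beside -0.01 over all genes. Onecut2 was one of the 2, at 6.07 to 6.77 in the Gsk3a-low and 5.25 to 5.99 in the Gsk3a-high libraries, the nearest libraries being 0.08 log2 apart. Onecut3, at 4.25 to 4.89 in the Gsk3a-low and 4.31 to 4.86 in the Gsk3a-high libraries, overlapped. Cryba1 was the other, at 4.15 to 4.74 in the Gsk3a-low and 3.60 to 4.04 in the Gsk3a-high libraries, without passing the receptor 95th percentile in any.

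The crystallin gene Crybb1 had a median of 5.98 in the Gsk3a-low and 5.30 in the Gsk3a-high libraries, but the classes overlapped. The other relatives of Cryba2, among them Crybb3 and Crygs, differed by 0.20 log2 or less between medians. Mybpc2, Mybpc3 and Mybphl, the other myosin binding protein genes, were at background in every library, with median differences of -0.04 to 0.09 log2. Of 15 relatives of Adam18, 12 never passed the receptor 95th percentile, nor did 8646 of all 22180 genes. The largest differences among these relatives were -0.36 log2 for Adam1a and 0.33 log2 for Adam26a, both with overlapping classes. Esyt1 and Esyt2, by contrast, were well above background in every library, at medians of 8.06 and 9.59 in the Gsk3a-low and 7.92 and 9.61 in the Gsk3a-high libraries. Ascl2 and Ascl3 were at background throughout.

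**Figure D5:**
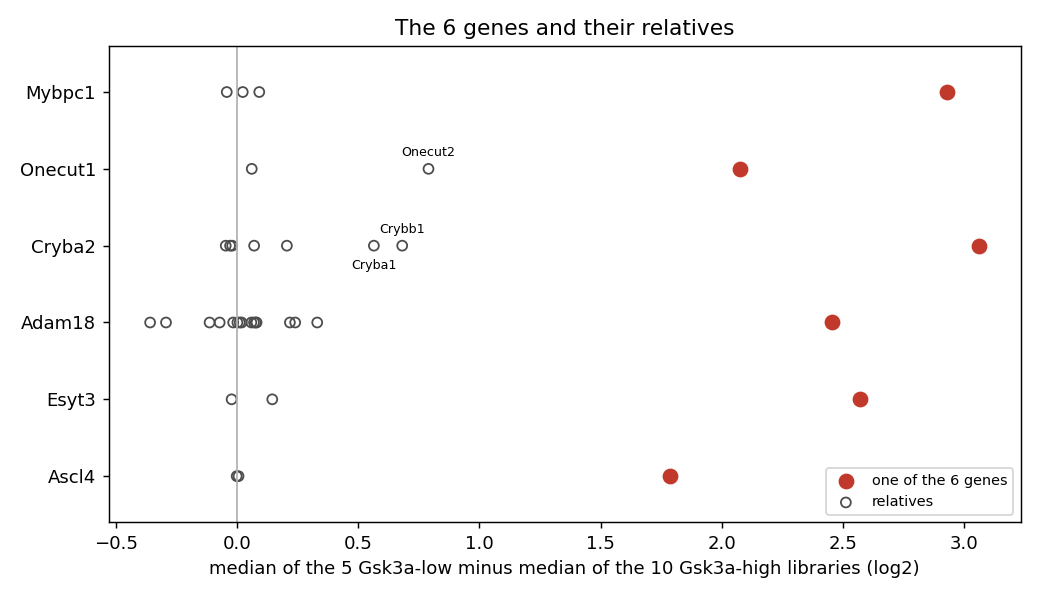
Median of the 5 Gsk3a-low minus median of the 10 Gsk3a-high libraries (log2) for each of the 6 genes (filled) and for the 31 measured relatives of their families (open). The filled points lie at 1.79 to 3.06, while the relatives lie between -0.36 and 0.79, with Onecut2, Crybb1 and Cryba1 highest.

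Genes of the tissues in which the 6 are best known were also set beside them. Over all 22180 genes, 0.663% lay wholly higher and 0.843% wholly lower in the Gsk3a-low libraries, so 0 in a short list says little. Of all genes 8646 never passed the receptor 95th percentile. Of 16 skeletal muscle markers 0 separated the classes, 10 never passed the receptor 95th percentile, and the mean level of the list was 3.97 to 4.22 in the Gsk3a-low and 3.89 to 4.11 in the Gsk3a-high libraries. Ttn, the giant sarcomere protein gene, had the largest difference, with a median of 4.89 in the Gsk3a-low and 3.83 in the Gsk3a-high libraries, and passed the 95th percentile in 2 of 5 and 0 of 10. Of 7 lens markers, 11 spermatid markers and 10 liver and pancreas markers 0 separated the classes, and 6, 8 and 10 of them never passed the receptor 95th percentile. The mean level of each list overlapped between the classes, at 3.92 to 4.15 in the Gsk3a-low and 3.85 to 4.16 in the Gsk3a-high libraries for lens. For spermatid markers it was 4.54 to 4.6 in the Gsk3a-low and 4.5 to 4.63 in the Gsk3a-high libraries, and for liver and pancreas markers 3.25 to 3.34 in the Gsk3a-low and 3.26 to 3.42 in the Gsk3a-high libraries. Of 7 epidermis markers, set beside Ascl4, 1 separated the classes: Krt14 was lower, at background, in the Gsk3a-low libraries (3.17 to 3.26) than in the Gsk3a-high ones (3.26 to 3.59).

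Markers of neighbouring tissue that can be carried into a dissected cerebellum overlapped too. The hindbrain list had a mean level of 3.90 to 4.42 in the Gsk3a-low and 3.73 to 4.97 in the Gsk3a-high libraries. Of its 11 measured genes 0 separated the classes, and 8 never passed the receptor 95th percentile, which flattens the mean. Among all 22180 genes 8646 never passed it, and so few separated that 0 in a short list says little. Tph2 varied widely, at 3.62 to 6.17 (median 5.18) in the Gsk3a-low and 3.13 to 7.37 (4.27) in the Gsk3a-high libraries. So did Hoxa2, at 4.23 to 6.22 (5.39) and 3.91 to 7.39 (4.66). Each passed the 95th percentile in 3 of 5 and 4 of 10 libraries. The median difference over the list was 0.03 log2. Choroid plexus markers ran from 8.01 to 8.67 in the Gsk3a-low and 7.50 to 8.85 in the Gsk3a-high libraries, and Purkinje cell markers from 10.45 to 10.60 in the Gsk3a-low and 10.35 to 10.63 in the Gsk3a-high libraries. Granule neuron progenitor markers differed in the opposite direction to the 6 genes. Their mean level was 8.42 to 8.62 in the Gsk3a-low and 8.72 to 9.16 in the Gsk3a-high libraries. Of 9 markers, 8 had a lower median in the Gsk3a-low libraries, and Zic1 a slightly higher one (11.34 against 11.31). Over all 22180 genes, 9754 had a higher median in the Gsk3a-low libraries. Nhlh1 (7.23 to 7.56 against 8.13 to 8.94) and Mycn (6.69 to 7.11 against 7.17 to 7.83) did not overlap. Of all genes 0.843% lay wholly lower in the Gsk3a-low libraries, and the other markers overlapped. The part of this shift in the levels of the 6 genes was not tested.

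Most but not all WNT feedback and target genes separated the same libraries, Axin2 among them. Of 14 measured genes of that list 9 had every Gsk3a-low library above every Gsk3a-high one, where 0.663% of all genes did. The median difference was 0.92 log2. Rnf43, Dkk4, Tnfrsf19, Bambi and Lgr5 overlapped. Lgr5 had a lower median in the Gsk3a-low (6.48) than in the Gsk3a-high libraries (6.91), and so did Bambi (6.30 and 6.45). The list was drawn up with the separation known. Wif1, which binds WNT ligands, had the widest distance between nearest libraries of the 22180 genes, with 9.36 to 9.81 in the Gsk3a-low and 5.48 to 6.28 in the Gsk3a-high libraries, and Mybpc1 was next.

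The genes whose profile over the 15 libraries was most like the mean of the 6 were ranked by the root mean square difference after each gene's no-Cre mean was subtracted. That mean was 1.81 to 2.73 log2 in the Gsk3a-low and -0.20 to 0.18 log2 in the Gsk3a-high libraries. It is thus mostly the split used to choose the genes. By construction genes with a step of like size at that split come first, so nothing is read from their ranks. Transcripts annotated as noncoding were passed over. So were symbols made of Gm and digits, those ending in Rik, and those starting with Mir or Snor. Notum, an extracellular enzyme that inactivates WNT proteins (0.25 log2), Fst, the activin antagonist follistatin (0.26), Myo1e, a class I myosin (0.36), Lgr6, an R-spondin receptor (0.37), and Lef1 (0.38) came first. Gabra6, a GABA-A receptor subunit of granule neurons (0.40), Il6ra, the interleukin-6 receptor (0.42), Ism1, a secreted protein (0.42), Emilin3, of the extracellular matrix (0.50), and Rasl11b, a RAS-like GTPase (0.54), followed. The 6 genes themselves lay 0.17 (Esyt3) to 0.58 (Ascl4) from that mean, so Ascl4 was less like it than any of the 10. Myo1e was 9.10 to 9.39 in the Gsk3a-low and 6.76 to 7.48 in the Gsk3a-high libraries. Il6ra was 7.48, 6.66 and 6.55 in libraries DKO 2, 4 and 5, with 7.50 and 7.55 for Math1-Cre 1 and 2, and 4.68 to 5.65 in the Gsk3a-high libraries. Emilin3 was 5.42, 5.6 and 4.47 in libraries DKO 2, 4 and 5, with 5.20 and 5.67 for Math1-Cre 1 and 2, and 3.54 to 3.87 in the Gsk3a-high libraries, with DKO 5 lowest as for Cryba2, Adam18 and Esyt3.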

How the data were processed

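The deposited values are log2 expression, 1 per array row. Partek 6.6, RMA and mm9 are named, per the submitters' processing notes, without settings. They were used as deposited. Of 41345 rows, 23521 carried 1 gene symbol; of several rows of a gene the one with the highest mean was kept, leaving 22180 genes. The Gsk3a row carries 2 symbols and stands outside the tested genes. RMA values near background understate differences, and the number of arrays limits precision.

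The 6 members, the lists, the motif letters and the tests were chosen with earlier results of these data known. limma 3.58.1 (R 4.3.3) fitted 1 mean per labelled group to all 15 libraries, with eBayes and Benjamini-Hochberg adjustment over all genes at 0.05. A check on simulated data used a smaller spread than the 6 genes had in the Cre-labelled groups. It therefore does not show that differences in these genes would be detected. Correlations used Python 3.11.15 and SciPy 1.17.1. Named genes were the members, Axin2, up to 4 of each list by largest difference of medians, and the 10 most alike. The other genes separated by 1 log2 were named after their values were seen. The overlapping WNT genes and Zic1 were named outside this rule. Alternatives were 3 scalings, a filter at the 30th percentile, robust moderation, subsets of libraries and blocks. Replicate numbers do not pair libraries by the labels, and the deviations of same-numbered libraries correlated from -0.30 to 0.30.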

Additional observations from a re-analysis of the deposited data

How the results depend on the processing

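All 6 genes placed the 5 Gsk3a-low above the 10 Gsk3a-high libraries under each of the 3 scalings and without any 1 library. In the labelled comparisons 0 of 6 members passed under every setting but one: without DKO 1, DKO 3, Math1-Cre 1 and Math1-Cre 2, 6 passed in DKO minus no-Cre and 6 in DKO minus Math1-Cre. That subset is set by the Gsk3a row, as was the choice of the 6 genes, so nothing is read from these calls. With the replicate number as a block 0 of 6 passed in each comparison, and the block changed no call; the numbers do not pair the libraries. Without those 4 libraries Math1-Cre minus no-Cre reversed to -0.11 for Mybpc1, -0.24 for Cryba2, -0.075 for Adam18, -0.023 for Esyt3 and -0.39 for Ascl4. With centring on the receptor gene median, DKO minus Math1-Cre reversed to -0.032 for Esyt3 and -0.21 for Onecut1; the cause was not tested. Leaving out single libraries, it ran from 0.069 to 0.97 for Mybpc1, -0.13 to 0.91 for Cryba2, -0.21 to 0.83 for Adam18, -0.081 to 0.70 for Esyt3 and -0.15 to 0.52 for Onecut1, with signs turning without DKO 2, 4 or 5 or Math1-Cre 3, 4 or 5. In the same way Math1-Cre minus no-Cre ran from 0.60 to 1.43 for Mybpc1, 0.56 to 1.498 for Cryba2, 0.55 to 1.36 for Adam18, 0.63 to 1.34 for Esyt3 and 0.04 to 0.49 for Ascl4, lowest without Math1-Cre 1 for Mybpc1 and Esyt3 and without Math1-Cre 2 for the others. Of 432 member differences under other settings, 401 kept direction and side of the threshold, 12 came to pass and 19 reversed.

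Correlations with Axin2 in the 10 Gsk3a-high libraries, with centring on the receptor gene median, were 0.83 for Mybpc1, 0.72 for Cryba2, reversed, 0.91 for Adam18, 0.76 for Esyt3 and 0.74 for Onecut1, each past the adjusted threshold in the permutation test; this subtracts the same number from both sides, which by construction adds a shared term. There, without DKO 3 and no-Cre 4, the libraries farthest from the median of Axin2, r was 0.78 for Mybpc1, 0.82 for Adam18, 0.53 for Esyt3 and 0.21 for both Cryba2 and Onecut1, and the adjusted permutation p of rho for Cryba2 was 0.106. As deposited, without single libraries r ran from 0.57 to 0.89 for Mybpc1, 0.25 (without Math1-Cre 5) to 0.71 (without DKO 3) for Adam18, -0.34 to -0.01 for Cryba2, -0.063 to 0.25 for Esyt3, -0.29 to 0.24 for Ascl4 and -0.10 to 0.34 for Onecut1. No member had a second row with 1 symbol, so that alternative gave no value. Axin2 had one, which was not used. It was 4.29 to 4.84 in the Gsk3a-low and 3.98 to 4.28 in the Gsk3a-high libraries, so the classes barely separated on it. The order of libraries over the receptor median was added after seeing the data. Signal near background limits Cryba2, Adam18, Esyt3 and Ascl4 in the Gsk3a-high libraries.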
